A study of Mus musculus with 2 samples.

Results

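The replication-dependent histone genes supply the bulk of the chromatin protein that a dividing cell needs. They were taken here as all genes whose symbol begins with H2ac, H2bc, H3c, H4c or Hist1 to Hist4, together with the linker histone genes H1f1 to H1f5. The rule found 66 of the 55401 genes in the deposited matrix: 5 H1, 20 H2A, 17 H2B, 12 H3 and 12 H4 genes. UMIs (captured RNA molecules, each counted once) of these genes were compared between cycling and non-cycling cells, between gated cell types and between the 2 libraries. The samples were live CD45+ cells, which are the white blood cells, sorted from the lungs of Siah1a/2 KO and WT mice. Both groups were taken 7 weeks after a first dose of urethane, a chemical carcinogen that induces lung tumours. There was 1 library per genotype, and the age of the mice, the deleted part of the genes and the number of animals pooled were not given in the sources used here. The matrix marks the libraries by barcode suffix only, and no label ties a suffix to a genotype, so they are called library 2 and library 1 and no genotypes are compared. Cells are not replicates, so no p-values are given, and each interval given is an exact 95% one for counting error alone.

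In background, these genes are transcribed when DNA is copied, in S phase, and their products package the new DNA. The core histones H2A, H2B, H3 and H4 form the nucleosome, and H1 binds the DNA between nucleosomes. Their mRNAs are the exception among messages: most end in a short stem-loop that SLBP binds, in place of a poly(A) tail, and they are degraded when S phase ends. A 3′ single-cell library is primed on runs of A, so the UMIs counted here come from the part of the histone RNA that such priming can capture, and UMI counts of different genes do not rank their transcript levels.

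Of the 66 genes, 64 were matched to the GENCODE M21 annotation of GRCm38 (mm10), 54 of them on chromosome 13 and 10 on chromosome 3. The genes Hist1h2bq and Hist1h2br were not matched. A stem-loop was found in the annotated transcript of 41 genes, and 23 matched genes had none. The search was on the transcript strand, for GGNNNT, the loop TNTN and then ANNNCC, with all 6 bases of the stem paired. The form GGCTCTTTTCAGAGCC was found in 23 genes. The sites below are shown because they belong to the genes that the library comparison and the cell cycle comparison turn on. Capitals mark the stem-loop, and lower case the bases around it.
Hist1h2ap: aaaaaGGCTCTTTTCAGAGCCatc
H2ac8: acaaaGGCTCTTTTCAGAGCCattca
H2ac18: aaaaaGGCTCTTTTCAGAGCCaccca
H3c3: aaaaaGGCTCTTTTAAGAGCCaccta
H2ac4: acaaaGGCTCTTTTCAGAGCCaccca
H4c4: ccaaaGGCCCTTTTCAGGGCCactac
H4c9: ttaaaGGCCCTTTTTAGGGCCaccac
H1f4: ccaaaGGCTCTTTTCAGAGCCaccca
H1f2: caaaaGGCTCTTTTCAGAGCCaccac
The flanks differ more than the stem-loops. Hist1h2ap, an H2A gene at chr13:21833026-21833507 on the minus strand, has a run of 12 A that starts 12 bases before its stem-loop. H2ac8, an H2A gene at chr13:23570517-23571220 on the minus strand, has a run of 8 A at the same distance. The annotated transcripts also end at different distances past the stem-loop: 3 bases in Hist1h2ap, 11 in H2ac4, 74 in H3c3, 151 in H2ac8, 770 in H4c4, 840 in H1f2 and 1153 in H1f4. For H1f5, a single-exon gene at chr13:21779883-21780625 on the minus strand, the annotated transcript stops at the end of the coding sequence, and no stem-loop lies in it.

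The start regions differ in motifs by family, most in the octamer and the H1 box. RefSeq promoters of GRCm38.p6 (250 bases before to 50 after the gene start) were held for 50 of the genes, with 51 promoters in all. The motifs were searched on both strands. The octamer ATTTGCAT was in 42.9% of H2A and 53.8% of H2B promoters, in none of the 5 H1, 10 H3 or 9 H4 promoters, and in 1.74% of all 32851 promoters. The H1 box AAACACA was in 80.0% of H1, 14.3% of H2A and 15.4% of H2B promoters, in none of the H3 or H4 promoters and in 7.18% of all promoters. CCAAT was in every H1, H2A, H2B and H3 promoter, in 33.3% of H4 promoters and in 37.4% of all promoters. TATAAA was in 80.0% of H1, 71.4% of H2A, 66.7% of H4, 46.2% of H2B and 40.0% of H3 promoters, and in 13.6% of all promoters. The H1f5 and H2ac8 promoters are printed because these genes gave the most UMIs of the linker and H2A families, and capitals mark matches to any of these motifs on either strand.
H1f5, minus strand: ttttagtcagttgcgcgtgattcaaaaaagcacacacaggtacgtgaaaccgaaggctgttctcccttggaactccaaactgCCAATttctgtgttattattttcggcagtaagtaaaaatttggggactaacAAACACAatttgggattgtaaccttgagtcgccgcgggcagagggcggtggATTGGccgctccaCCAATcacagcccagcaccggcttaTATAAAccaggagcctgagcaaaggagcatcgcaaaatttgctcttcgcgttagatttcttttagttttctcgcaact
H2ac8, minus strand: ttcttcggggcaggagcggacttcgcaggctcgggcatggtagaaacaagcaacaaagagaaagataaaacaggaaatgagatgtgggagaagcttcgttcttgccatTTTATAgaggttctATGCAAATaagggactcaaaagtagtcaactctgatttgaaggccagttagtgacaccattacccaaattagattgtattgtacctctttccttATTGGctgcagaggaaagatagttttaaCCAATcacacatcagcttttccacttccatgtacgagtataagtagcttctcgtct
The windows are chr13:21780576-21780875 for H1f5 and chr13:23571171-23571470 for H2ac8. A match describes the letters of the window and is not a measured binding site.

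The 2 libraries held 6113 and 8066 cells after filtering in library 2 and library 1, with 59035155 and 85822792 UMIs. Histone genes gave 59577 UMIs in library 2 and 121750 in library 1. A cell was called cycling when it held at least 3 UMIs of Mki67, Top2a and Birc5 together, genes of dividing cells. This gate took 571 cells (9.34%) of library 2 and 958 cells (11.9%) of library 1. The median UMI count per cell was 16917 in cycling and 7492 in non-cycling cells of library 2, and 19153 and 8074 in library 1. Cycling cells were therefore the deeper ones, and levels are given per 1000000 UMIs of the summed cells (CPM). The libraries shared 11 barcode sequences. Ptprc, which encodes CD45, had a UMI in 97.3% of kept cells of library 2 and 97.4% of library 1. Markers left out of the gates were checked too: 5 T-cell genes such as Trac and Lck summed to 4216 CPM in CD8 T cells and 43.3 CPM in macrophages. The macrophages held 9324 CPM of their own 5 genes, mostly Apoe, but Lyz2 at only 18.9 CPM. In all, 1461 barcodes with markers of several lineages were kept apart as mixed.

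Cycling cells held several times more histone RNA than non-cycling cells, in both libraries. The summed level was 3305 CPM in cycling cells and 490.3 CPM in non-cycling cells of library 2, a 6.74-fold difference (log2 2.75, 2.73 to 2.78). In library 1 it was 4182 CPM in cycling cells and 579 CPM in non-cycling cells, a 7.22-fold difference (log2 2.85, 2.84 to 2.87). All 5 families were higher in cycling cells. The H2A sum differed most, with 475 CPM in cycling and 27.4 CPM in non-cycling cells of library 2 (17.4-fold) and 901 and 46.6 CPM in library 1 (19.3-fold). The H3 sum differed 13.4-fold and 14.5-fold in library 2 and library 1. H1, H2B and H4 differed less: H1 6.09-fold and 5.73-fold, H2B 5.56-fold and 6.52-fold, and H4 3.84-fold and 4.70-fold in library 2 and library 1. The order of the families was H2A, H3, then the others in both libraries, with H4 the lowest.

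Single genes spread widely in this ratio, with log2 values of 0.53 to 7.28 in library 2 and 0.47 to 7.17 in library 1. Of the 66 genes, 59 had a UMI in the kept cells and 7 had none: H2ac1, H2ac14, H2ac19, H2bc1, H3c14, Hist1h2bq and Hist1h4m. H2ac19 and H3c14 have no 90-base stretch that is absent from other annotated genes, so reads from them would also match another gene. For H3c14 that gene may be Gm20634, which covers all its 1825 bases on the same strand, and need not be a histone copy. The ratio was formed for genes with at least 50 UMIs in the cycling and non-cycling sums together, 42 in library 2 and 53 in library 1. Of these, 40 of 42 were more than 2-fold higher in cycling cells of library 2, where 5.77% of all 13173 genes counted were, and 50 of 53 in library 1, where 5.79% of 13826 genes were. None was more than 2-fold lower, against 5.37% and 7.12% of all genes. In each library 15 of the counted genes held under 50 UMIs in non-cycling cells and passed the minimum through the cycling cells. Among the other 27 and 38 genes, 25 and 35 were past 2-fold higher. With every detected gene included, the level was higher in cycling cells for 59 of 59 genes in library 2 and for 58 of 59 in library 1, where H3c15 had 3 UMIs in cycling and 18 in non-cycling cells.

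H1f5, a linker histone, was the most captured gene, with a large ratio that was not among the 5 highest of either library. It had 13389 UMIs in cycling and 1698 in non-cycling cells of library 2, or 1230.3 and 35.3 CPM (log2 5.12, 5.05 to 5.20). In library 1 it had 24854 and 2699 UMIs, or 1243 and 41.0 CPM (log2 4.92, 4.86 to 4.98). The other abundant linker genes behaved differently. H1f4 had 456 CPM in cycling and 151 CPM in non-cycling cells of library 2 (log2 1.59) and 504 and 163 CPM in library 1 (log2 1.63). H1f2 had 208 and 132 CPM in library 2 (log2 0.65) and 197 and 142 CPM in library 1 (log2 0.47), and was the least different or next to least different histone gene in each library. H1f5, H1f4 and H1f2 together gave 57.3% of histone UMIs in cycling cells and 65% in non-cycling cells of library 2, and 46.5% and 59.8% in library 1. Most histone UMIs of non-cycling cells therefore came from 3 linker genes.

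The core histone genes with the largest ratios were nearly silent outside the cycling gate. H2ac10, an H2A gene, had 176 UMIs in cycling and 5 in non-cycling cells of library 2, and 349 and 8 in library 1 (log2 7.28 and 7.17). H3c3 had 104 CPM in cycling and 0.935 CPM in non-cycling cells of library 2 (log2 6.80) and 162 and 2.19 CPM in library 1 (log2 6.21). H2ac4 had 100.4 and 1.18 CPM in library 2 (log2 6.41) and 121 and 1.64 CPM in library 1 (log2 6.21). These genes thus ranked at the top of the genes counted in both libraries. H3c2 (log2 6.82 and 6.02) stood beside them, with H3c8 (6.1) in library 2 and H2bc14 (5.51) in library 1. Several passed the minimum only through the cycling cells, which favours high ratios. In non-cycling cells of library 2, H2ac10, H3c2, H3c8 and H3c3 held 5, 6, 4 and 45 UMIs. In library 1, H2ac10 and H3c2 held 8 and 17. H2ac4 in library 2 and library 1 (57 and 108), and H3c3 (144) and H2bc14 (53) in library 1, met the minimum in non-cycling cells alone. H2ac8 had 141 CPM in cycling and 3.88 CPM in non-cycling cells of library 2 (log2 5.18) and 294 and 8.78 CPM in library 1 (log2 5.06).

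The core genes with the smallest ratios kept a level in non-cycling cells. H2bc4, an H2B gene, had 56.1 CPM in cycling and 24.2 CPM in non-cycling cells of library 2 (log2 1.21), and 54.3 and 28 CPM in library 1 (log2 0.95). H4c14 had 3.03 and 2.10 CPM in library 2 (log2 0.53) and 5.10 and 2.11 CPM in library 1 (log2 1.27). H2bc21 (log2 1.10 and 0.87), H4c3 (1.08 in library 2) and H2ac21 (1.2 in library 1) were also among the 5 lowest of a library. H4c4, the most captured core gene, lay between, at 147 and 35.0 CPM in library 2 (log2 2.07) and 249.8 and 47.0 CPM in library 1 (log2 2.41). H2ac20 had log2 ratios of 2.69 and 2.67, H3c6 of 3.11 and 3.38 and the linker gene H1f3 of 2.80 and 2.57 in library 2 and library 1. H1f4 and H2bc6 overlap by 496 bases on the same strand, so reads from that stretch cannot be told apart. In all, 6 of the genes overlap another annotated gene on the same strand, and 20 overlap antisense genes only, which matters only if the counting did not use strand, a setting not given in the sources used here.

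**Figure D1:**
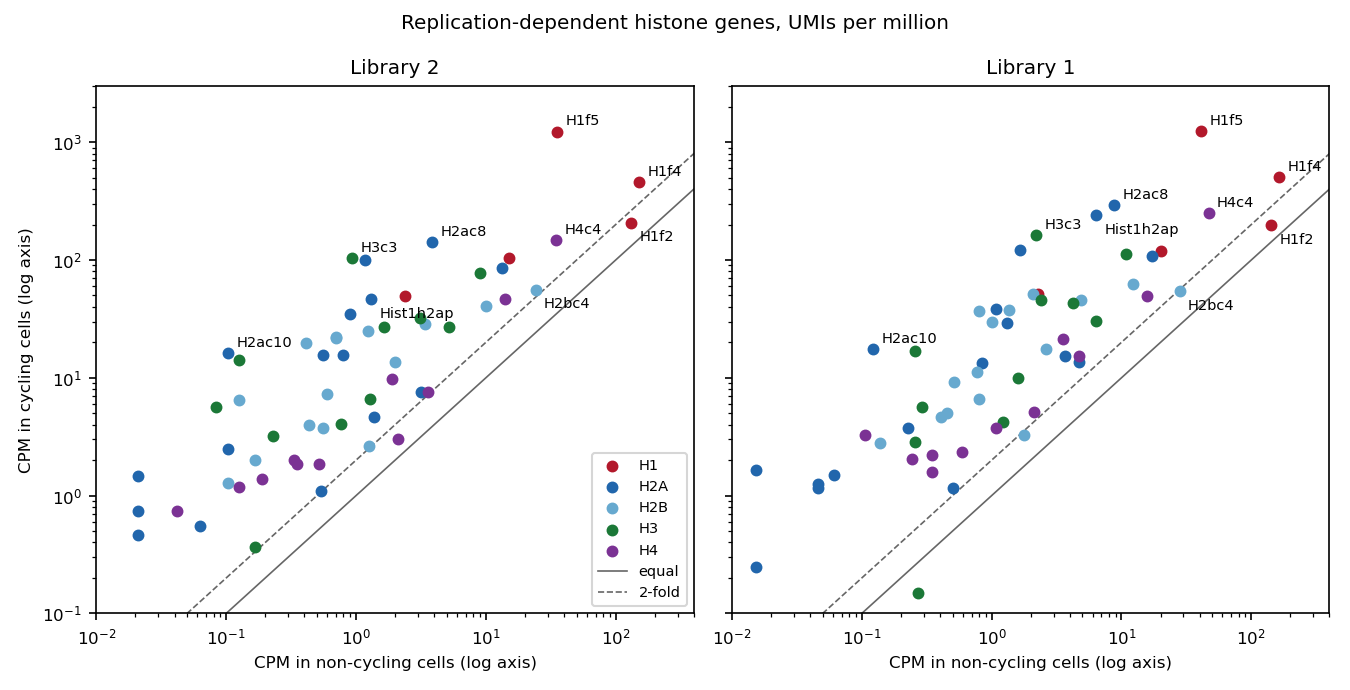
CPM of each histone gene in cycling cells (vertical) against non-cycling cells (horizontal), both on log axes, in library 2 and library 1, coloured by family, and genes at 0 in either group left out. Points lie above the line of equality except H3c15 in library 1, H1f5 stands at the top (1230.3 and 1243 CPM in cycling cells) and H1f2 lies between the lines of equality and of a 2-fold difference.

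The histone level was unequal among cycling cells. The median cycling cell held 1015 CPM in library 2 and 1486 CPM in library 1, with a 90th percentile of 8951 and 11539 CPM. The median non-cycling cell held 389 CPM in library 2 and 473 CPM in library 1. The 99th percentile of non-cycling cells was 2901 CPM in library 2 and 3337 CPM in library 1. Above it lay 176 of the 571 cycling cells of library 2 (30.8%, 27.1 to 34.8 by Clopper-Pearson) and 336 of the 958 of library 1 (35.1%, 32.0 to 38.2). The tenth of cycling cells with the most histone UMIs held 48.7% of them in library 2 and 41.1% in library 1. Most cycling cells thus lay below the 99th percentile of non-cycling cells. The difference was not confined to the cells above it, since the cycling median was also the higher in both libraries. In library 1 the cycling median passed the 90th percentile of non-cycling cells (1362 CPM), and in library 2 it did not (1237 CPM).

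**Figure D2:**
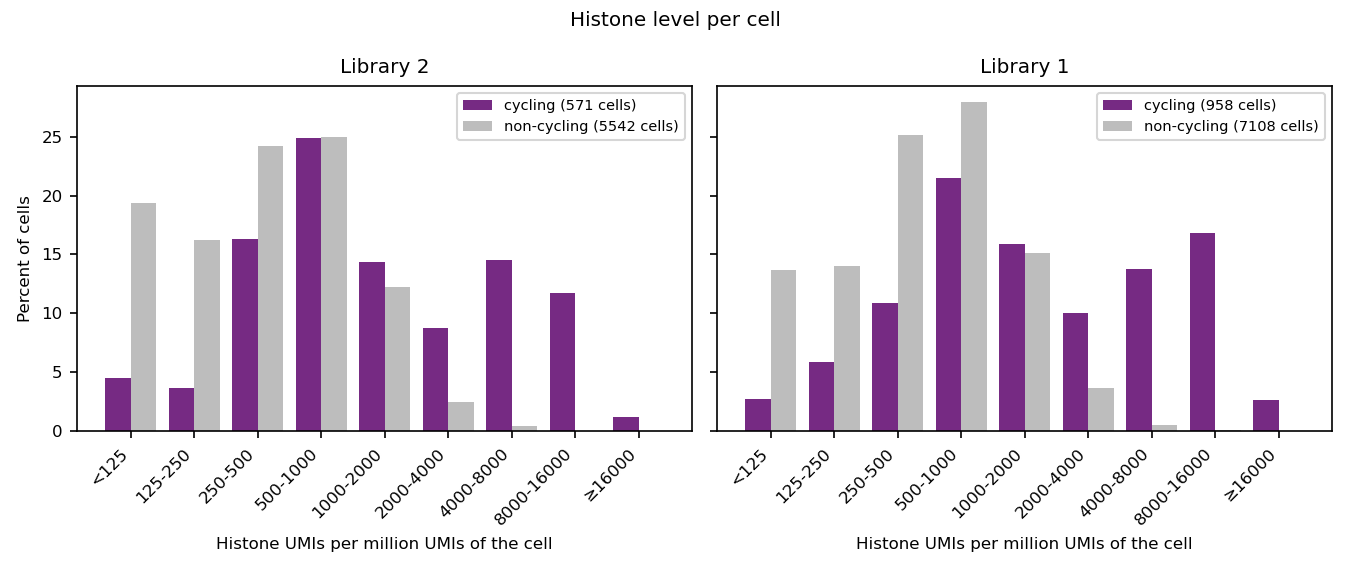
Percent of cells (vertical) by CPM of the single cell (horizontal, ranges that double), for cycling and non-cycling cells of library 2 and library 1. In the range of 8000 to 16000 lay 11.7% of cycling cells of library 2 and 16.8% of library 1, against 0.0541% and 0.0985% of non-cycling cells.

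At least 1 histone UMI was present in 97.9% of cycling and 86.7% of non-cycling cells of library 2, and in 98.6% and 91.2% in library 1. After thinning each cell to 3000 UMIs, with 456 and 567 shallower cells left out, the shares were 87.7% and 67.1% in library 2 and 88.8% and 71.7% in library 1. Neutrophils, short-lived cells that do not divide, had a histone UMI in 77.0% (library 2) and 80.6% (library 1) of cells at median depths of 2629 and 2514 UMIs. The presence of a UMI therefore does not mark an S-phase cell, and levels are used from here on.

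The level climbed with the number of gate UMIs from 2 upwards, and the step at the gate's edge was small. Cells just outside the gate, with 2 gate UMIs, held 525 CPM in library 2 and 596 CPM in library 1, and cells just inside, with 3, held 571 and 668 CPM. Cells with 6 to 10 gate UMIs held 890.4 CPM in library 2 and 1274 CPM in library 1. Those with over 20 held 6269 CPM in 190 cells of library 2 and 7209 CPM in 381 cells of library 1. Cells outside the gate with at least 10 UMIs of the S-phase list were no higher than the rest, at 429.6 CPM against 502 CPM in library 2 and 512 against 594 CPM in library 1. A fixed count of 10 UMIs is reached more easily by deep cells, so these cells need not be in S phase. The part of depth in this comparison was not tested.

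Within cycling cells the histone level was highest at intermediate S shares. The S share is the part of S-phase list UMIs (Mcm2 to Mcm7, Pcna, Tyms and others) among the UMIs of that list and a G2 and mitosis list (Cdk1, Ccnb1, Cenpf and others). It was taken in cells with at least 5 such UMIs. In library 2 the summed level was 2753 CPM at an S share under 0.25 (117 cells), 5475 CPM at 0.25 to 0.5 (92 cells), 5332 CPM at 0.5 to 0.75 (109 cells) and 1789 CPM at 0.75 or more (218 cells). In library 1 it was 4712 CPM (203 cells), 6561 CPM (158 cells), 6946 CPM (174 cells) and 1806 CPM (384 cells) in the same order. The middle ranges were the highest in both libraries, and the order of the outer ranges changed when cells were thinned. The 2 middle ranges, summed, stood above the range under 0.25 by log2 0.97 in library 2 and 0.52 in library 1, and above the range of 0.75 or more by 1.59 and 1.91. After thinning to 3000 UMIs the middle ranges were still the highest, by 1.17 and 1.02 over the range under 0.25 and by 0.53 and 0.92 over the range of 0.75 or more. The range under 0.25 was then the lowest in both libraries, whereas without thinning the range of 0.75 or more was. Thinning also changed which cells passed the gate and the range each fell in, and the part of depth alone was not tested. Nor does a high S share mark S phase alone, since non-cycling cells held RNA of the S-phase list. Its highest gene there, Pcna, had 89.9 CPM in library 2 and 82.0 CPM in library 1. The highest of the G2 and mitosis list, Cks2, had 42.3 and 36.9 CPM. Cells just inside the gate can thus fall at 0.75 or more, and the part of gate strength in that range's low level was not tested.

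Most single genes were highest in a middle range, and the exceptions were highest at the lowest S share. With at least 50 UMIs in the outer ranges together, 27 of 29 genes in library 2 and 35 of 39 in library 1 were highest in a middle range, where 43.9% of 8690 and 43.4% of 9991 other genes were (genes of the gate and of both lists left out). None was highest at 0.75 or more. H1f5 had 804, 2072, 2168 and 672 CPM from the lowest to the highest S share in library 2, and 1099.8, 1914, 2368 and 556 CPM in library 1. H2bc4 fell steadily along the same ranges, with 142, 68.2, 36.4 and 22.1 CPM in library 2 and 127, 69.0, 40.2 and 22.2 CPM in library 1, so that it was highest at the lowest S share. The ranges pool cell types in unequal mixes, and H2bc4 differed by type, as given below. In library 2, CD8 T cells were 37 of 117 cells under 0.25 and 49 of 109 at 0.5 to 0.75. In library 1 they were 87 of 203 and 83 of 174. The part of cell type in the fall of H2bc4 was not tested. H1f2 was flat over the lower ranges and then dropped, with 306, 305, 235 and 109 CPM in library 2 and 285, 296, 212 and 109 CPM in library 1. H1f1, a linker gene, had 9.98, 71.7, 101 and 35.2 CPM in library 2 and 25.8, 58.4, 124 and 29.5 CPM in library 1. Its level at 0.75 or more was above that under 0.25 by log2 1.82 in library 2 (1.15 to 2.55). In library 1 these 2 levels were equal within counting error (log2 0.19, -0.15 to 0.54). H3c1 was higher at 0.75 or more than under 0.25 in both libraries, at 28.1 against 17.6 CPM in library 2 (log2 0.67, 0.13 to 1.25) and 31.0 against 22 CPM in library 1 (log2 0.50, 0.14 to 0.87). The same contrast was negative for H3c3, at log2 -1.24 in library 2 and -2.0 in library 1, and for H2ac4, at -1.14 and -2.20.

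**Figure D3:**
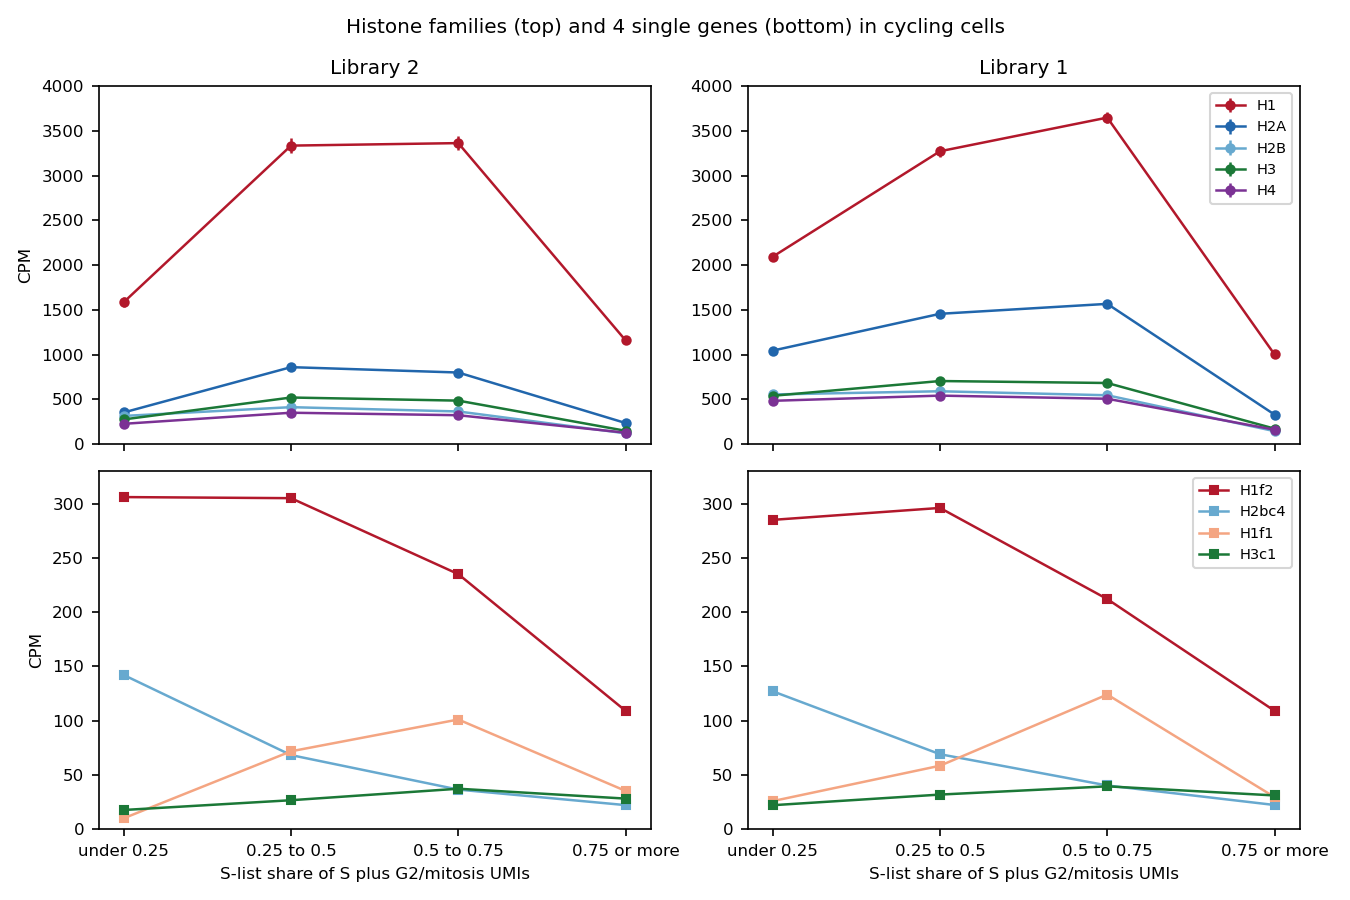
CPM in cycling cells (vertical) by the share of S-phase list UMIs (horizontal), for the 5 families with Poisson intervals (top) and for H1f2, H2bc4, H1f1 and H3c1 (bottom), in library 2 and library 1. H1 peaks in the middle ranges (3334 and 3362 CPM in library 2), H2bc4 falls from left to right and H1f1 peaks at 0.5 to 0.75.

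The difference between cycling and non-cycling cells was seen in each type with at least 20 cycling cells. Cycling CD8 T cells held the most in library 2, with 5013 CPM against 545 CPM in non-cycling CD8 T cells (9.19-fold), and 5316 against 646 CPM in library 1 (8.23-fold). Cycling macrophages held 2068 against 277 CPM in library 2 (7.47-fold) and 2989 against 396 CPM in library 1 (7.55-fold). Other T cells, those with Cd3 genes that met no rule for a named T-cell type, held 3627 against 494 CPM and 3758 against 575 CPM. Cycling NK cells held 2899 against 519 CPM in library 2 (5.59-fold) and 5566 against 592 CPM in library 1 (9.41-fold). The mixed barcodes had the smallest differences, 3.96-fold and 5.00-fold. Regulatory T cells had enough cycling cells in library 1 only, with 2862 against 539 CPM (5.31-fold). Macrophages were lower than CD8 T cells in both states and both libraries.

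In CD8 T cells, the largest cycling group, 32 of the 33 genes counted in library 2 and 42 of the 43 in library 1 were past 2-fold higher in cycling cells, against 6.75% and 5.57% of all genes. In NK cells these were 18 of 20 and 29 of 31 genes, against 5.50% and 5.25% of all genes. In macrophages they were 7 of 8 and 19 of 19 genes, against 5.65% and 5.67% of all genes. Genes that passed the minimum through the cycling cells were not set apart in these counts by type, and such genes are bound to be called higher. H1f5 had 1962 CPM in cycling and 34.8 CPM in non-cycling CD8 T cells of library 2, and 1592 and 47.0 CPM in library 1. In cycling macrophages H1f5 was lower, at 713 CPM in library 2 and 676 CPM in library 1. H2bc4 was the opposite: it had 216 CPM (library 2) and 139 CPM (library 1) in cycling macrophages, and 40.6 and 40.0 CPM in cycling CD8 T cells.

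**Figure D4:**
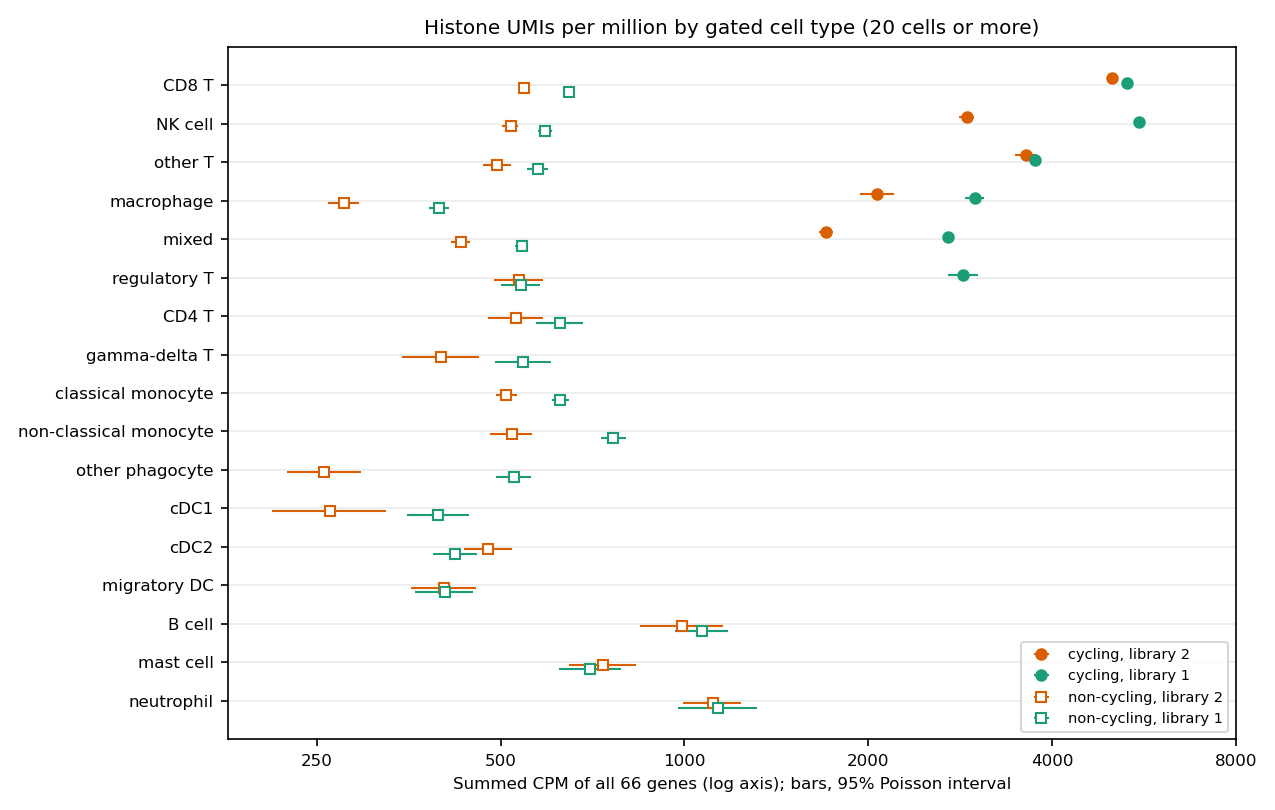
Summed CPM of the 66 genes (horizontal, log axis) by gated cell type, for cycling and non-cycling cells of library 2 and library 1, with 95% Poisson intervals, for groups of 20 cells or more. Cycling groups lie between 1704 and 5566 CPM and non-cycling groups between 257 and 1136 CPM.

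Among non-cycling cells the makeup of the histone RNA differed by type, and neutrophils stood out. Neutrophils held 1113 CPM in library 2 (113 cells) and 1136 CPM in library 1 (62 cells), against 545 and 646 CPM in non-cycling CD8 T cells. H1f2 gave 429 CPM of it in library 2 (128 UMIs) and 474 CPM in library 1 (76 UMIs), and H2bc4 gave 335 CPM (100 UMIs) and 299.5 CPM (48 UMIs). In non-cycling CD8 T cells H1f2 had 141 and 135 CPM and H2bc4 had 12 and 13.2 CPM. H4c9 and H2bc6, named after their values were seen, had 87.2 and 77.1 CPM in neutrophils of library 2 and 99.8 and 56.2 CPM in library 1. The genes that marked cycling cells were rare there: H1f5 had 6 and 7 UMIs, H2ac8 2 and 1, H3c3 0 and 2, and Hist1h2ap and H2ac4 0 in both libraries. H1f2 and H2bc4, which gave most of the neutrophil UMIs, were also among the genes with the smallest ratio of cycling to non-cycling cells. Mast cells held the same genes at lower levels, with 271 and 221 CPM of H1f2 and 119 and 108 CPM of H2bc4 in library 2 and library 1. B cells, at 992 and 1068 CPM, were high in linker genes, with 274 and 293 CPM of H1f4 and 231 and 246 CPM of H1f2. Neutrophils, mast cells and B cells rest on 52 to 113 cells per library at median depths below that of CD8 T cells, and the part of depth in these levels was not tested.

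Histone levels were lower in library 2 than in library 1, and the core histones more than the linker histones. In cycling cells the sum differed by log2 -0.34 (3305 against 4182 CPM), the sum without H1 by -0.72 (1256 against 2068 CPM) and the H1 sum by -0.05 (2049 against 2115 CPM). In non-cycling cells these were -0.24, -0.45 and -0.13. Of 50 genes counted in cycling cells, 45 were lower in library 2 and 11 were past 2-fold lower, where 0.873% of all 11798 genes were. Of 41 counted in non-cycling cells, 39 were lower and 5 past 2-fold lower, where 1.19% of 14394 genes were. None was past 2-fold higher, against 1.31% and 1.01% of all genes. In cycling cells, 4 of 11 H2A, 3 of 15 H2B, 4 of 9 H4, none of 10 H3 and none of 5 H1 genes counted were past 2-fold lower. Of the 11, 4 held 13 to 22 UMIs in library 2 and reached the minimum through library 1: H4c6, H4c1, Hist1h2bp and H2bc13. Among the 37 genes with at least 50 UMIs in library 2 alone, 7 were past 2-fold lower. In non-cycling cells 2 of the 5, H3c3 and H4c1, held under 50 UMIs in library 2, and 3 of the 27 genes with at least 50 there were past 2-fold lower.

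Hist1h2ap, an H2A gene, differed most. It had 504 UMIs in cycling cells of library 2 and 4775 in those of library 1, or 46.3 against 239 CPM (log2 -2.37, -2.50 to -2.23). In non-cycling cells it had 63 and 419 UMIs, or 1.31 against 6.37 CPM (log2 -2.28, -2.69 to -1.90). It was lower in library 2 in every type counted: in cycling CD8 T cells by log2 -2.08 (280 against 2369 UMIs), in NK cells by -2.93, in macrophages by -2.80, in other T cells by -2.10 and in mixed barcodes by -2.74. Of the 11798 genes counted in cycling cells, 10 had a lower ratio. Only 7.63% of the 90-base stretches of Hist1h2ap are absent from other genes, so its counts depend on how reads that match copies were assigned.

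H2ac18, another H2A gene, with 11.5% of such stretches, had 4.69 against 13.6 CPM in cycling cells (log2 -1.53) and 1.37 against 4.69 CPM in non-cycling cells (log2 -1.78). It overlaps Gm20634 by 529 bases on the same strand, so its share of such stretches need not reflect histone copies alone. H2ac8 had 141 against 294 CPM in cycling cells (log2 -1.06) and 3.88 against 8.78 CPM in non-cycling cells (log2 -1.18). H4c6 (-1.44), Hist1h2bp (-1.20) and H4c8 (-1.13) completed the 5 lowest in cycling cells, and H3c3 (-1.23) and H4c1 (-1.05) were among the 5 lowest in non-cycling cells. At the other end stood H2ac11 (0.23), H3c10 (0.17), H1f2 (0.08), H2bc4 (0.05) and H3c8 (-0.00) in cycling cells. Over all types together, H1f5 was equal within counting error in cycling cells, at 1230.3 against 1243 CPM (log2 -0.01, -0.04 to 0.02). In cycling CD8 T cells alone H1f5 was higher in library 2, at the levels given above. In non-cycling cells the highest were H2ac21 (0.11), H1f1 (0.07), H4c14 (-0.01) and H2bc7 (-0.06), followed by H1f2 and H1f4 at -0.11.

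The genes with a run of 5 or more A starting within 20 bases before the stem-loop (Hist1h2ap, Hist1h2ao, H2ac7, H2ac8, H2ac18, H2ac19, H2ac20 and H3c3) were grouped after the values were seen, so their values are a description. Their median log2 ratio of library 2 over library 1 was -0.85 in cycling cells (6 counted) and -1.23 in non-cycling cells (5 counted). For the other genes with a stem-loop it was -0.42 (29 counted) and -0.39 (24 counted), and for all genes 0.05 in cycling cells. The groups overlapped: H2ac20, with 5 A before its stem-loop, had -0.35 and -0.37, and H4c6, outside the A-run group, had -1.44.

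**Figure D5:**
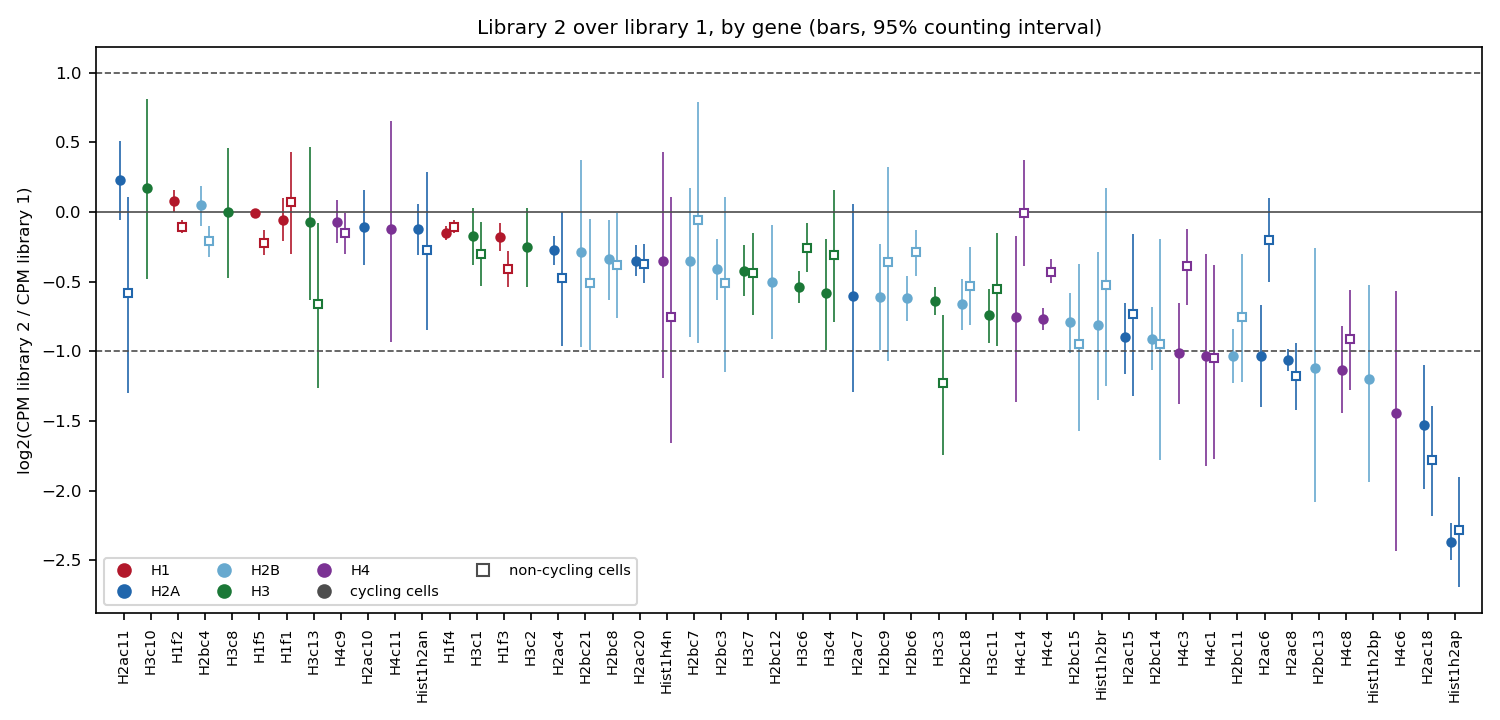
log2 ratio of CPM in library 2 over library 1 (vertical) for the 50 genes counted in cycling cells, in order of that ratio, with the non-cycling ratio beside it where counted and 95% counting intervals. H1 genes lie near 0, most others lie below it, and Hist1h2ap lies lowest in both states (-2.37 and -2.28).

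The size of the library difference was not equal across cell types. In cycling CD8 T cells the sum differed by log2 -0.08 (5013 against 5316 CPM) and 2 of 43 genes were past 2-fold lower, where 1.01% of all genes were. The H1 sum of CD8 T cells was higher in library 2 in most ranges of S share, as at 0.75 or more (1958 against 1331 CPM). At 0.5 to 0.75 it was lower (4064 against 4290.5 CPM). The sum without H1 was lower in every range, as at 0.25 to 0.5 (3162 against 4662 CPM). In cycling NK cells the sum of all members differed by -0.94 (2899 against 5566 CPM) and 17 of 31 genes were past 2-fold lower, where 0.874% were. Genes that reached the minimum through library 1 were not set apart in these counts by type. Without NK cells the difference over all cycling cells was -0.25, with 7 genes past 2-fold lower. In cycling NK cells 19 of 96 cells of library 2 (19.8%, 12.4 to 29.2) and 40 of 104 of library 1 (38.5%, 29.1 to 48.5) lay above the 99th percentile of non-cycling cells. Their spread over the ranges of S share differed as well. A share of 0.75 or more was held by 53 NK cells of library 2 and 43 of library 1, and 0.25 to 0.75 by 17 and 34 cells. Within the range under 0.25, NK cells held 1900.2 CPM in library 2 (20 cells) and 6834 CPM in library 1 (21 cells), whereas at 0.25 to 0.5 they held 8541 CPM (5 cells) and 7895 CPM (15 cells). The part of S share in the NK difference was not tested. With 1 library of each kind, a difference between libraries cannot be told apart from a difference in preparation.

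Genes that act on histone RNA and protein were compared in the same way. Of 15 genes for histone mRNA synthesis and processing, 2 of 14 counted were past 2-fold higher in cycling cells of each library, where 5.77% of all genes were in library 2 and 5.79% in library 1. Slbp, the stem-loop binding protein, had 204 against 92.1 CPM in library 2 (log2 1.15) and 200.3 against 92.5 CPM in library 1 (log2 1.11). Lsm11, a part of the U7 particle that guides 3′-end cleavage, had log2 1.07 and 1.06, and its partner Lsm10 had -0.32 and -0.54. Npat, the coactivator of histone gene transcription, had 0.79 and 0.90. The processing genes thus differed less than the histone genes did, with a median of 0.60 in library 2 and 0.67 in library 1.

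Of 14 histone chaperones 7 were past 2-fold higher in each library, against the same 5.77% and 5.79% of all genes. Asf1b, which carries new H3 and H4, was highest, with 97.4 against 4.8 CPM in library 2 (log2 4.34) and 93.3 against 4.72 CPM in library 1 (log2 4.30). Chaf1a, a subunit of the assembly factor CAF-1, had log2 2.94 and 2.78. Daxx, a chaperone of the replacement histone H3.3, was the lowest, at -0.72 and -0.79. Of 11 replication-independent histones counted, 5 were past 2-fold higher in each library, against those same shares: H2ax, with 212 against 29.5 CPM in library 2 and 233 against 29.4 CPM in library 1, and H2az1, H2az2, H1f10 and Cenpa. H3f3b, which encodes H3.3, was by contrast captured at 3299 against 3967 CPM (log2 -0.27) and 3172 against 4075 CPM (log2 -0.36), and H1f0 had -0.32 and -0.49. None of the genes counted on these lists was past 2-fold apart between the libraries in cycling cells.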

How the data were processed

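Single-cell 3′ RNA libraries of sorted CD45+ lung cells were deposited as 1 matrix of raw UMI counts per gene and barcode. Cell Ranger 6.1.2 and mm10 are named in the submitters' processing notes, and the annotation and the treatment of reads that match several genes are not given in the sources used here. Of the barcodes, those under 500 genes or over 10% mitochondrial UMIs were dropped, leaving 14179 of 15001. Barcodes with markers of several lineages were set apart as mixed, and no doublet caller was run. Counts were summed per library, gated type and cycling state and given as CPM. Intervals are exact Poisson, Clopper-Pearson or conditional binomial. A gene was counted if the sums compared held 50 UMIs or more between them, and called if they then differed 2-fold or more. Named in full are the 12 genes with the most UMIs, the 5 highest and 5 lowest of each main comparison, and up to 4 genes per related list. Members and lists were chosen with earlier results of these data known. Simulated data were used to check the ratio step. Python with numpy 2.4.6, scipy 1.17.1, pandas 2.3.3 and matplotlib 3.10.9 was used. Stem-loops come from GENCODE M21 transcripts and promoters from RefSeq GRCm38.p6. Alternatives covered the gate, thinning, cell filters, scaling, minimum counts and leaving out H1f5.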

Additional observations from a re-analysis of the deposited data

How the results depend on the processing

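No paired analysis was possible because each genotype has 1 library and the suffixes carry no replicate number. The direction of the summed ratios did not change under any of the settings run. The ratio of cycling to non-cycling cells (log2 2.75 in library 2, 2.85 in library 1) was 2.42 and 2.55 with the gate at 2 UMIs, 3.0 and 3.12 at 5, 2.30 and 2.40 with a gate from the G2 and mitosis list, 3.25 and 3.31 after thinning to 3000 UMIs, 3.0 and 3.04 without mixed and ungated cells, 2.44 and 2.60 as a mean over cells, and 2.19 and 2.45 without H1f5. It was 2.88 in library 1 without mitochondrial and ribosomal protein genes. Chosen after seeing the data, CD8 T cells alone gave 3.20 and 3.04, and all cells without NK cells 2.80 and 2.81. Thinning left 24 and 31 genes past 2-fold in place of 40 and 50. It lowers the UMIs that count toward the minimum, but also leaves out shallower cells and changes which cells pass the gate. These parts were not told apart.

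The ratio of library 2 over library 1 in cycling cells (-0.34) was -0.38 with the gate at 2, -0.29 thinned, -0.26 without mixed and ungated cells, -0.37 without mitochondrial and ribosomal protein genes, -0.41 as a mean over cells, -0.50 without H1f5, -0.08 in CD8 T cells and -0.25 without NK cells. Its 11 genes past 2-fold lower became 4 thinned, 2 in CD8 T cells and 7 without NK cells. The 5 in non-cycling cells became 10 with a minimum of 20 UMIs, 13 with none and 8 without NK cells. In CD8 T cells the library ratio of H1f4 in cycling cells turned to 0.09 and that of H1f2 in non-cycling cells to 0.06.

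For the S share, thinning gave 1.17 and 1.02 (library 2, library 1) over the lowest range and 0.53 and 0.92 over the highest, which turned the order of the outer ranges round, and a minimum of 10 UMIs gave 1.88 over the highest range in library 1. Shares of cells with a histone UMI thinned to 3000 UMIs were 87.7% and 67.1% (cycling, non-cycling) in library 2 and 88.8% and 71.7% in library 1, and at 1500 UMIs 72.0%, 48.0%, 78.3% and 52.4%. Without mixed and ungated cells the summed level was 4007 and 499 CPM in library 2 and 4799 CPM in cycling cells of library 1. The causes of these shifts were not tested. Depth limits genes under 50 UMIs and the cell types with few cycling cells.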
